A study of Mus musculus with 30 samples.

Results

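The Schlafen genes Slfn1, Slfn2, Slfn3, Slfn4, Slfn5, Slfn8 and Slfn9 were followed in dendritic cells grown from mouse bone marrow. They are 7 of the 43629 genes in the count table. The 7 were selected by symbol, each through its Ensembl identifier, and the family was proposed with earlier results of these data known. Which contrast led to that choice was not recorded, so every fold change and adjusted p of a member below is a description, and none is given as support. The other Schlafen-named genes Slfn10-ps, Slfn14 and Slfnl1 were not among them.

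Schlafen proteins take their name from the German word for sleeping, after the growth arrest that Slfn1 gave in thymocytes. The mouse proteins fall into a short class with Slfn1 and Slfn2, an intermediate class with Slfn3 and Slfn4, and a long class with Slfn5, Slfn8 and Slfn9, whose members carry a helicase-like domain at the C terminus. Slfn2 keeps T cells and monocytes quiescent, Slfn4 is a gene of myeloid cells, and several members are induced by type I interferon. That cytokine signals through the receptor chains Ifnar1 and Ifnar2 and the kinases Jak1 and Tyk2 to a complex that holds Stat2 and Irf9 and binds the interferon-stimulated response element in the promoters of its targets.

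The study asked what the calcium channel subunit Cacnb3 does in migratory dendritic cells when they meet extracellular ATP, a danger signal released from damaged tissue. RNA was sequenced from bone marrow-derived dendritic cells (BMDCs), grown with GM-CSF, of 10 numbered cultures. The 5 WT cultures bore the numbers p974s846, p974s850, p974s855, p974s856 and, as the last, p974s864. Those of Cacnb3-/- were also 5, p974s843, p974s851, p974s852, p974s853 and, as the last, p974s865. Every one of them gave 3 libraries, named ctrl, 0p5h and 24h in a design with a 30 min pulse of 500 µM ATP and harvest directly or after 24 hours. The labels disagreed on the first pair of sets, since the treatment field gave ATP for the ctrl libraries and vehicle for the 0p5h libraries, so both are given by name and neither is called unstimulated. The mice were of both sexes, and marrow for such cultures came from animals aged 6 to 12 weeks. The WT animals were C57BL/6J and the Cacnb3-/- animals C57BL/6N by the study's methods, so that substrain and genotype cannot be told apart. The labels do not say whether a culture is 1 animal, and p-values then measure the spread between these libraries, which may be technical. In bulk samples like these, fewer cells of a type and less RNA per cell cannot be told apart.

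Library depth was 8237393 to 32164225 reads on genes, and the 24h libraries of Cacnb3-/- held 8237393 to 22535554. Mature dendritic cell markers (12 of 12 detected) summed to 17239 to 29818 CPM in WT and 13484 to 19687 in Cacnb3-/- in the ctrl set. In the 24h set the sums were 21684 to 30384 and 13324 to 20502. The abundant genes weigh most in such a sum, and the list did not go one way. In 24h the log2 fold change of Cacnb3-/- over WT was -0.80 for Ccr7, -0.79 for Fscn1 and -0.46 for H2-Ab1. It was 0.12 for Cd83, 0.24 for Cd86 and 0.34 for Zbtb46, and below 0 for the rest of the list. CPM is the usual read count scaled to library size, here with TMM factors. Macrophage or monocyte markers (12 of 12 detected) summed to 2500 to 10345 CPM in WT and 3076 to 14092 in Cacnb3-/- in the ctrl set, and cultures p974s864 and p974s865 were the highest of their genotypes there. Granulocyte markers (10 detected) summed to 133 to 707 CPM over all libraries, T cell markers to at most 23.1, B cell markers to at most 5.05, NK cell markers to at most 0.540 and proliferation markers to 14.4 to 32.5. Whole-gene Cacnb3 counts were 1159 to 1387 CPM in WT and 777 to 1317 in Cacnb3-/- in the ctrl set, 1035 to 1449 and 751 to 1331 in the 0p5h set, and 1303 to 2143 and 573 to 1295 in the 24h set, and such a sum over all exons does not check the deletion.

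The 7 members lie in 1 cluster on mouse chromosome 11 (GRCm38). Slfn5 (ENSMUSG00000054404) spans 82951349 to 82962941 on the plus strand, Slfn9 (ENSMUSG00000069793) 82979629 to 82991830 and Slfn8 (ENSMUSG00000035208) 83002158 to 83020810 on the minus strand. Slfn2 (ENSMUSG00000072620) spans 83065112 to 83070678, Slfn1 (ENSMUSG00000078763) 83116849 to 83122670, Slfn4 (ENSMUSG00000000204) 83175186 to 83190221 and Slfn3 (ENSMUSG00000018986) 83191330 to 83215154, all on the plus strand. Stretches of 50 bases that are identical in another Schlafen gene made up 15.3% of the Slfn8 transcript, 10.3% of Slfn9, 8.37% of Slfn4, 4.95% of Slfn3, 3.55% of Slfn2 and 0.557% of Slfn1, and none were found in Slfn5. Slfn8 shared them with Slfn9 and Slfn10, and Slfn4 with Slfn3 and Slfn2, and how reads from such stretches were assigned is uncertain. The exons of Slfn5 overlap 77 of 4427 bases with the antisense gene Slfn5os, which held at most 1 read in a library, and the counting was not stated to use strand.

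RefSeq (GRCm38.p6) gave 8 promoter windows for the 7 members, with 2 for Slfn8, each from 250 bases before to 50 bases after a transcript start. The 5 windows below are shown because they carry a motif found in only some members (Slfn5, Slfn8 and Slfn9) or belong to the members with the widest range of levels that lack it (Slfn1 and Slfn4). Each is written 5′ to 3′ on the strand of the gene, and capitals mark the core of the interferon-stimulated response element, which is GAAA, any 2 bases and GAAA again, or its reverse complement.
Slfn5, chr11:82951852-82952151, plus strand: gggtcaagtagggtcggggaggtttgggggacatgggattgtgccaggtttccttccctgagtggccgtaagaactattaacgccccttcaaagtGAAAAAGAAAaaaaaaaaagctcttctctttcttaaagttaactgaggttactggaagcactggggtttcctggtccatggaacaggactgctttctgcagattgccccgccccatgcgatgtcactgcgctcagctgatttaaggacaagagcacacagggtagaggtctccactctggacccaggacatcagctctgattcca
Slfn8, chr11:83020761-83021060, minus strand: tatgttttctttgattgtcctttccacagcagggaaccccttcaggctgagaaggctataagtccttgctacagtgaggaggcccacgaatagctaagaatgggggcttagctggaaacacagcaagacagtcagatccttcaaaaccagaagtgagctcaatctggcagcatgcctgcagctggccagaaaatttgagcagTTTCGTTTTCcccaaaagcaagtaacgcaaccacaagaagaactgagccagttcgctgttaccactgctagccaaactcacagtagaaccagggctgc
Slfn9, chr11:82991781-82992080, minus strand: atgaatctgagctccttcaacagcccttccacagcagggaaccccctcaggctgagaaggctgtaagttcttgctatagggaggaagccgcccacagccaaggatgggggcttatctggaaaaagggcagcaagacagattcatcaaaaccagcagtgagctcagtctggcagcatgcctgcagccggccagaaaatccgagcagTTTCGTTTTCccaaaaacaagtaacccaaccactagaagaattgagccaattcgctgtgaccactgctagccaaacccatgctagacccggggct
Slfn1, chr11:83116570-83116869, plus strand: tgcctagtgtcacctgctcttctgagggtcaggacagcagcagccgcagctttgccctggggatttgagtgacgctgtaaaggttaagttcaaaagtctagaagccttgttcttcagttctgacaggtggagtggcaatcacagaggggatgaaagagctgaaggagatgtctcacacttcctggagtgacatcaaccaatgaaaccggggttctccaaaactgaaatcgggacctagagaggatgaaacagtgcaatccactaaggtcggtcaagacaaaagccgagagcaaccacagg
Slfn4, chr11:83174936-83175235, plus strand: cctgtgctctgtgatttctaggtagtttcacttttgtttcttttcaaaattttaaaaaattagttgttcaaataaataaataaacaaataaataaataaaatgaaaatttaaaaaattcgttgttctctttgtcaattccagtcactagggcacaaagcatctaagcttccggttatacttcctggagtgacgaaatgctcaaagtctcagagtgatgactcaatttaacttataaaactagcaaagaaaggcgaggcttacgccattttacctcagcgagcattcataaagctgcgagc
The core was found on either strand in 4 of the 8 windows, which are 3 separate sites because the overlapping Slfn8 windows hold the same one, against 1131 (3.44%) of the 32851 promoter windows of all genes. All 3 long-class members had it, at -155 from the start in Slfn5, at -45 in Slfn9 and at -48 in the Slfn8 window shown, and the letters of the match were the same in Slfn8 and Slfn9. The bases around the match were also nearly the same in Slfn8 and Slfn9, so their sites do not count as independent. The windows of the short and intermediate members Slfn1, Slfn2, Slfn3 and Slfn4 held no match to the core. The gamma-activated site, TTC, any 3 bases and GAA, was searched as well. It was found in 0 of the 8 windows, against 2726 (8.3%) of the 32851 windows of all genes. A match is a description of letters in these windows and not of binding.

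Per length of exon, Slfn2 was the highest member by far, with a mean of 188 RPKM (CPM per kilobase of exon) over the 30 libraries. Slfn5 followed at 7.88, Slfn1 at 5.24, Slfn4 at 4.11 and Slfn8 at 3.06 RPKM, while Slfn3 at 0.613 and Slfn9 at 0.228 were low. Slfn2 took 70.6 to 91.5% of the members' summed CPM in a library, with a median of 82.6%. Slfn2 also had the narrowest range of the members, 3.98-fold between the highest and the lowest library, against 26.1-fold for Slfn1, 27.3-fold for Slfn4 and 36.3-fold for Slfn9. Slfn2 held 2098 to 18911 reads in a library, whereas Slfn9 held 1 to 70 and Slfn3 5 to 79, so Slfn9 and Slfn3 carry the largest counting error.

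**Figure D1:**
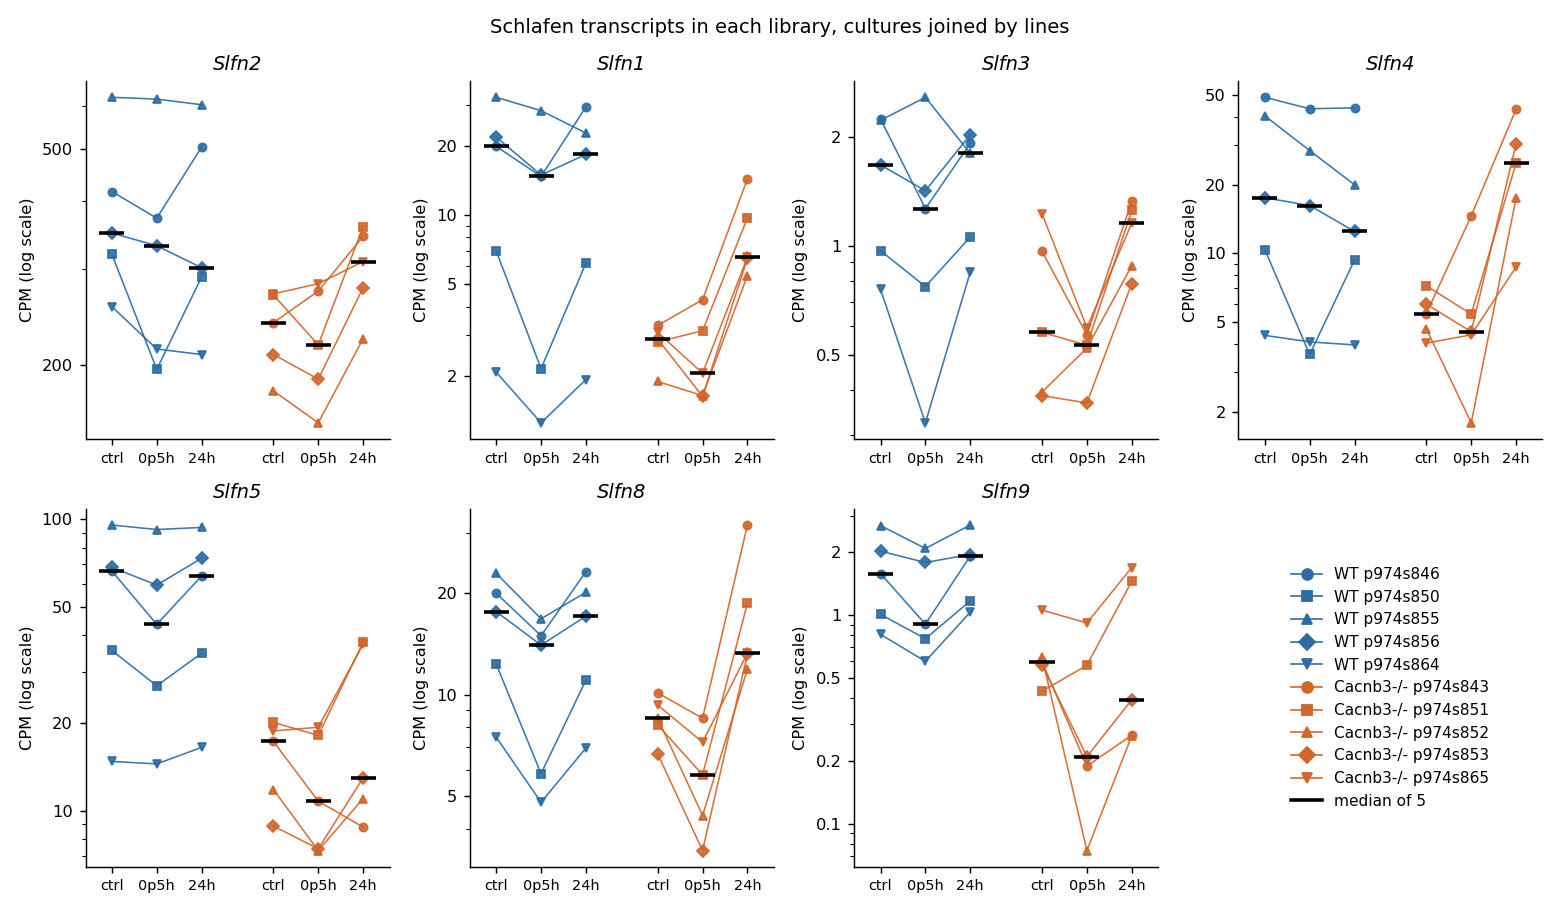
Each panel plots 1 Schlafen gene as CPM on a log axis in the 3 sets, with WT cultures in blue, Cacnb3-/- cultures in orange, lines joining the libraries of a culture and bars at the median of 5. WT cultures spread over a wide range in every set with p974s864 at or near the bottom, for example from 2.07 to 32.5 CPM of Slfn1 in ctrl, while the Cacnb3-/- cultures were higher in 24h than in 0p5h for nearly all members.

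Much of the range lay between the WT cultures. Culture p974s855 had the highest mean over its 3 libraries for 6 of 7 members, the exception being Slfn4 in p974s846, and p974s864 had the lowest for 7 of 7. For Slfn1 the WT culture means spanned 3.93 on the log2 scale and the Cacnb3-/- culture means 1.16, and for Slfn4 they spanned 3.43 and 1.49. For Slfn9 the order was turned, with 1.52 in WT and 1.82 in Cacnb3-/-. No single Cacnb3-/- culture led in this way, since p974s843 and p974s865 were each highest for 3 members and p974s851 for 1. Within a Cacnb3-/- culture the 3 libraries spanned a wider range than within a WT culture, by the median culture of each member, for example 2.73 against 0.49 on the log2 scale for Slfn4 and 1.75 against 0.69 for Slfn1.

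The comparison of genotypes asked whether loss of Cacnb3 went with other transcript levels in a set. In the ctrl set the Schlafen genes were lower on average in Cacnb3-/- BMDCs, with log2 fold changes from -0.73 (Slfn2) to -2.54 (Slfn1), while culture p974s864 of WT lay among the Cacnb3-/- libraries for each member. The range of the genotypes overlapped for 7 of 7 members in each of the sets, a description for which no share over all genes is given. By edgeR, 0 of 7 members were called at an adjusted p under 0.05 and 2-fold in ctrl, and 0% of 13022 genes were called in all. All 7 had an unadjusted p under 0.05, as had 2161 of the genes tested. DESeq2 called Slfn1, Slfn4 and Slfn5 as lower (3 of 7), where it called 1.02% of genes.

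Of the short class, Slfn1 was at 19.9, 6.98, 32.5, 21.8 and 2.07 CPM in the WT ctrl libraries and at 3.31, 2.81, 1.89, 2.89 and 3.09 in Cacnb3-/-, with cultures in the order given above. In all, 4 of 5 WT libraries lay above every Cacnb3-/- library. The means were 16.7 ± 12.2 (SD, n = 5) and 2.80 ± 0.543 CPM, with a log2 fold change of -2.54 (SE 0.56, edgeR adjusted p = 0.243). Slfn2, the quiescence factor, was at 417, 319, 621, 350 and 256 CPM in WT and at 239, 269, 179, 209 and 270 in Cacnb3-/-. Again p974s864 was the exception among the WT libraries, and the log2 fold change was -0.73 (SE 0.22, adjusted p = 0.245).

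In the intermediate class, Slfn4 was at 48.8, 10.4, 40.5, 17.6 and 4.35 CPM in WT and at 5.42, 7.20, 4.64, 5.97 and 4.02 in Cacnb3-/- in the ctrl set. The lowest WT library lay within the Cacnb3-/- range and the other 4 above it, with means of 24.3 ± 19.4 and 5.45 ± 1.23 CPM and a log2 fold change of -2.13 (SE 0.54, adjusted p = 0.243). Slfn3 was low throughout, at 0.758 to 2.24 CPM in WT and 0.385 to 1.23 in Cacnb3-/-, and 3 of 5 WT libraries were above every Cacnb3-/- library (log2 fold change -1.08, SE 0.41, adjusted p = 0.262).

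In the long class, Slfn5 was at 66.4, 35.5, 95.6, 68.4 and 14.8 CPM in WT and at 17.3, 20.1, 11.8, 8.85 and 18.8 in Cacnb3-/- in ctrl. WT library p974s864 again lay inside the Cacnb3-/- range, and the means were 56.1 ± 31.4 and 15.4 ± 4.81 CPM (log2 fold change -1.84, SE 0.41, adjusted p = 0.243). Slfn8 was at 19.9, 12.3, 22.8, 17.6 and 7.48 CPM in WT and at 10.1, 8.13, 8.5, 6.67 and 9.30 in Cacnb3-/- (log2 fold change -0.88, SE 0.26, adjusted p = 0.245). Its difference was under 2-fold. Slfn9 was at 0.808 to 2.69 CPM in WT and 0.432 to 1.06 in Cacnb3-/-, with a log2 fold change of -1.25 (SE 0.37, adjusted p = 0.245).

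**Figure D2:**
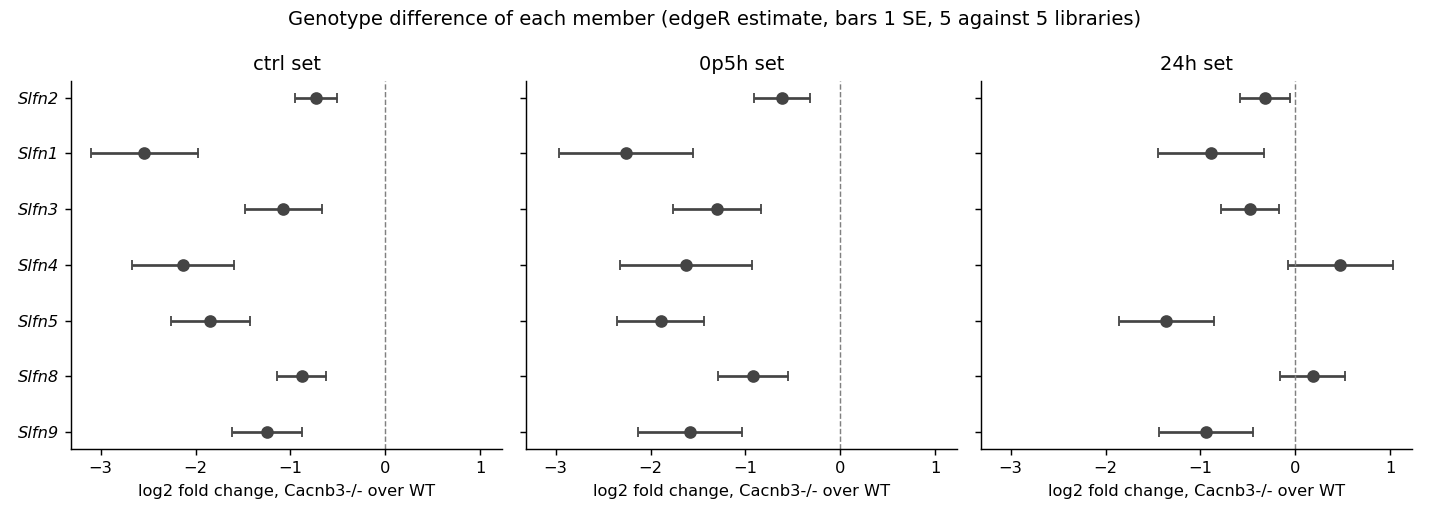
The log2 fold change of Cacnb3-/- over WT is plotted for each Schlafen gene in the ctrl, 0p5h and 24h sets, as edgeR's estimate with bars of 1 SE (5 against 5 libraries). All 7 estimates lie below 0 in ctrl and 0p5h, and in 24h Slfn4 (0.48) and Slfn8 (0.18) lie above it.

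In the 0p5h set the differences ranged from -0.62 (Slfn2, SE 0.29, adjusted p = 0.319) to -2.26 (Slfn1, SE 0.71, adjusted p = 0.251) on the log2 scale. Slfn5 differed by -1.89 (SE 0.46), Slfn4 by -1.62 (SE 0.69), Slfn9 by -1.58 (SE 0.55), Slfn3 by -1.30 (SE 0.46) and Slfn8 by -0.92 (SE 0.37). Of the 7 members 0 were called by edgeR, with 0% of 12806 genes, and 6 had an unadjusted p under 0.05, as had 2103 genes. DESeq2 called Slfn5 alone (adjusted p = 0.0115), where it called 0.597% of genes.

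In the 24h set the members were no longer on one side. Slfn5, at 63.8, 34.7, 93.7, 73.5 and 16.5 CPM in WT and 8.78, 37.8, 11, 13 and 37.2 in Cacnb3-/-, had the largest difference, with a log2 fold change of -1.36 (SE 0.50, adjusted p = 0.0753). Its Cacnb3-/- libraries parted into p974s851 and p974s865, which lay inside the WT range, and 3 that lay below every WT library. Slfn4 was at 43.9, 9.35, 20.1, 12.5 and 3.95 CPM in WT and 43.2, 25, 17.5, 30.4 and 8.70 in Cacnb3-/-, and the log2 fold change was 0.48 (SE 0.55, adjusted p = 0.543). Slfn8 was at 23.1, 11, 20.03, 17 and 6.95 CPM in WT and 31.7, 18.6, 11.9, 13.2 and 13.2 in Cacnb3-/-, where p974s843 was above every WT library (0.18, SE 0.34, adjusted p = 0.714). Slfn1 differed by -0.89 (SE 0.56), Slfn9 by -0.94 (SE 0.49), Slfn3 by -0.48 (SE 0.31) and Slfn2 by -0.32 (SE 0.26). By edgeR 0 of 7 were called, with 0% of 12706 genes, and 1 had an unadjusted p under 0.05, as had 4877 genes. DESeq2 called Slfn5 (adjusted p = 0.0241), where it called 4.74% of genes.

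With the 3 libraries of each culture summed, Slfn1 differed by -1.85 (SE 0.58, adjusted p = 0.133) and Slfn5 by -1.67 (SE 0.46, adjusted p = 0.127) on the log2 scale, and the other 5 members by -0.55 (Slfn8) to -1.24 (Slfn9). Of 7 members 0 were called by edgeR (0% of 14833 genes), 5 had an unadjusted p under 0.05 as had 3449 genes, and DESeq2 called Slfn5 and Slfn9, with 1.75% of genes. The calls changed when 1 culture was left out. Once WT p974s864 was dropped, edgeR called 4 members in ctrl (Slfn1, Slfn4, Slfn5 and Slfn8, among 249 genes, 1.88%), 1 in 24h (Slfn5, among 733, 5.74%) and 3 with libraries summed (Slfn1, Slfn3 and Slfn5, among 380, 2.54%). Without Cacnb3-/- culture p974s865 it called Slfn5 in 24h, among 1129 genes (8.83%), and Slfn9 with libraries summed, among 190 (1.27%). In the 0p5h set no member was called by edgeR whichever culture was left out, and the share over all genes is not given for those fits.

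The header of the count table names the alignment file of each library with a lane (L001 to L003), and the genotypes were spread unevenly over the 3 lanes. Compared within lanes, the Cacnb3-/- mean was the lower for 21 of 21 pairs of member and lane in ctrl, for 17 of 21 in 0p5h and for 13 of 21 in 24h. The members varied together, so these pairs are not independent, and no share over all genes is given for them. In 24h lane L001, with 2 WT libraries and 1 Cacnb3-/- library, held 0 of 7, whereas lane L002 held 7 of 7 and lane L003 6 of 7. The WT libraries of lane L001 were p974s850 and p974s864 in 0p5h and 24h. In ctrl that lane also held p974s846, whose culture mean was higher than theirs for every member. The WT cultures compared within a lane thus changed between sets. The 3 Cacnb3-/- libraries of lane L003 in 24h were those in which Slfn5 lay below every WT library. With lane as a covariate 0 members were called by edgeR in each set, and the share over all genes is not given for these fits.

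The comparison of sets asked how the members moved between the libraries of a genotype. In WT, the 0p5h libraries were lower than the ctrl libraries of the same culture in 34 of 35 values, and 6 of 7 members were lower in 5 of 5 cultures, all but Slfn3. The 35 values are 7 members in 5 cultures, and the members varied together, so the values are not independent. Such counts of direction, here and below, are descriptions without a share over all genes. The mean log2 change ranged from -0.24 ± 0.27 (SD, n = 5 cultures) for Slfn2 to -0.70 ± 0.56 for Slfn1. Slfn8 was at 19.9, 12.3, 22.8, 17.6 and 7.48 CPM in ctrl and at 14.9, 5.84, 16.7, 14 and 4.81 in 0p5h. It was lower in each culture, by log2 changes from -0.33 to -1.06, the largest in p974s850. By edgeR 0 of 7 members were called, where 0.176% of 13085 genes were, and 0 had an unadjusted p under 0.05, and DESeq2 also called 0, with 0.322% of genes. With culture as a block Slfn8 reached an adjusted p of 0.00985 at a log2 fold change of -0.53 (SE 0.10), under the 2-fold minimum.

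From 0p5h to 24h the WT libraries were higher in 27 of 35 values, and Slfn5, Slfn8 and Slfn9, the long class, were higher in 5 of 5 cultures, by 0.29 ± 0.20, 0.52 ± 0.27 and 0.54 ± 0.33 on the log2 scale. The 24h libraries were thus near the ctrl libraries, with mean differences from ctrl between -0.09 (Slfn1) and 0.15 (Slfn9) for 6 members. Slfn4 differed, at -0.39 ± 0.38 and lower in 5 of 5 cultures. By edgeR 0 of 7 members were called between 0p5h and 24h (0.639% of 12830 genes) and 0 of 7 between ctrl and 24h (0.0152% of 13176 genes). None of the 7 had an unadjusted p under 0.05 in either comparison and DESeq2 called 0, with 1.03% and 0.199% of genes. With culture as a block Slfn8 had a log2 fold change of 0.51 (SE 0.11, adjusted p = 0.0204) from 0p5h to 24h, again under 2-fold.

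In Cacnb3-/-, the mean log2 change from ctrl to 0p5h was -0.08 (Slfn2) to -0.29 (Slfn3) for the short and intermediate members, and Slfn8 was lower in 5 of 5 cultures, by 0.59 ± 0.32 on the log2 scale. Slfn8 was at 10.1, 8.13, 8.5, 6.67 and 9.30 CPM in ctrl and at 8.51, 5.79, 4.39, 3.46 and 7.23 in 0p5h (edgeR log2 fold change -0.55, SE 0.24). Slfn9 was lower in 4 of 5 cultures and reached 0.0745 CPM, 1 read, in p974s852. Slfn4 was at 5.42, 7.20, 4.64, 5.97 and 4.02 CPM in ctrl and at 14.6, 5.39, 1.79, 4.51 and 4.37 in 0p5h, with p974s843 far above the others. Of the 6 members that passed the filter on low counts, which Slfn3 did not, 0 were called by edgeR and by DESeq2, where edgeR called 0.290% of 12750 genes and DESeq2 0.404%.

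From 0p5h to 24h the Cacnb3-/- libraries were higher in 34 of 35 values, and 6 of 7 members were higher in 5 of 5 cultures. Slfn1 went from 4.28, 3.14, 1.64, 1.63 and 2.05 CPM to 14.4, 9.72, 5.46, 6.48 and 6.56. Every 24h library was above every 0p5h library, and the changes of the single cultures were close together, at 1.71 ± 0.13 on the log2 scale. Slfn8 reached 31.7, 18.6, 11.9, 13.2 and 13.2 CPM in 24h, with no overlap to 0p5h and a change of 1.54 ± 0.43. Slfn4 reached 43.2, 25, 17.5, 30.4 and 8.70 CPM, the widest change of the members at 2.13 ± 0.90, but its 8.70 CPM in p974s865 lay below the 14.6 CPM of p974s843 in 0p5h. Slfn3 went from 0.567, 0.531, 0.521, 0.367 and 0.594 CPM to 1.33, 1.25, 0.880, 0.786 and 1.15, with no overlap and a change of 0.92 ± 0.19. Of all genes tested 1.37% were higher in 24h without overlap of the 5 and 5 libraries.

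Slfn2 was higher by 0.45 ± 0.23 on the log2 scale, from 273, 217, 156, 188 and 282 CPM to 345, 359, 223, 277 and 310, and Slfn9 by 0.81 ± 0.34. Slfn5 was the member that did not move one way, since p974s843 went from 10.8 to 8.78 CPM while p974s851 went from 18.1 to 37.8 and p974s865 from 19.3 to 37.2. In p974s843, the culture with the highest Slfn1, Slfn4 and Slfn8 in 24h, Slfn5 was thus the lowest of the 5 and Slfn9, at 0.266 CPM against 0.264 in p974s852, next to the lowest. Slfn5 and Slfn9 shared this split of the cultures, with p974s851 and p974s865 above the other 3 in 24h for both. The 24h libraries of those 3 were all from lane L003 and held 8237393 to 11986891 reads on genes. Those of p974s851 (L001) and p974s865 (L002) held 19462976 and 22535554. Culture, lane and depth therefore cannot be told apart in this split.

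By edgeR Slfn1 (log2 fold change 1.74, SE 0.35, adjusted p = 0.0376) and Slfn8 (1.60, SE 0.32, adjusted p = 0.0397) were called higher in 24h than in 0p5h, 2 of the 6 members tested, where 0.660% of 12730 genes were called. Slfn9 did not pass the filter on low counts here. Slfn4 (2.03, SE 0.52, adjusted p = 0.106) and Slfn3 (1.07, SE 0.27, adjusted p = 0.0970) were not called, nor were Slfn5 (0.80, SE 0.45) and Slfn2 (0.45, SE 0.19). With culture as a block 4 were called, where 2.88% of genes were, namely Slfn1 (1.76, SE 0.14, adjusted p = 1.83e-05), Slfn8 (1.57, SE 0.16, adjusted p = 0.000127), Slfn4 (2.10, SE 0.25, adjusted p = 0.000283) and Slfn3 (1.07, SE 0.26, adjusted p = 0.0118). DESeq2 called Slfn1, Slfn4 and Slfn8 both without the block (1.46% of genes) and with it (2.64%). Without the block the calls were near the threshold: 3 members were called without p974s843 (Slfn1, Slfn4 and Slfn8, where 0.515% of genes were called), and 0 without p974s851, without p974s852, without p974s853 or without p974s865. With the GC trend of the libraries taken out 0 were called, with 1.59 for Slfn1 (adjusted p = 0.0572) and 1.40 for Slfn8 (adjusted p = 0.0628). For these fits with 0 members called the share over all genes is not given. In the 4 cultures whose 0p5h and 24h libraries shared a lane, the mean change was 1.72 for Slfn1, 1.58 for Slfn8, 1.86 for Slfn4 and 0.99 for Slfn3, each higher in 4 of 4.

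From ctrl to 24h the Cacnb3-/- libraries were higher in 29 of 35 values, and Slfn1, Slfn2, Slfn4 and Slfn8 were higher in 5 of 5 cultures. Slfn4 went from at most 7.20 CPM to 8.70 to 43.2, without overlap, and neither Slfn1, at most 3.31 and at least 5.46 CPM, nor Slfn8, at most 10.1 and at least 11.9 CPM, overlapped. Of all genes tested 0.659% were higher in 24h without overlap. Of 6 members tested 0 were called by edgeR (0% of 12452 genes), and 4 had an unadjusted p under 0.05, as had 1343 genes. The log2 fold change was 2.19 for Slfn4 (SE 0.36, adjusted p = 0.139), 1.59 for Slfn1 (SE 0.28, adjusted p = 0.139), 1.04 for Slfn8 (SE 0.27, adjusted p = 0.423) and 0.38 for Slfn2 (SE 0.17). DESeq2 called Slfn1, Slfn4 and Slfn8, where it called 0.334% of genes. Without p974s865 edgeR called Slfn4, 1 of 3 genes (0.0245%). When blocked by culture, edgeR called Slfn1 (adjusted p = 0.00416) and Slfn4 (adjusted p = 0.00319), where 1.11% of genes were called, and DESeq2 the same pair with 1.22%, although the ctrl and 24h libraries of p974s843 hardly deviated together (r = 0.0746).

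**Figure D3:**
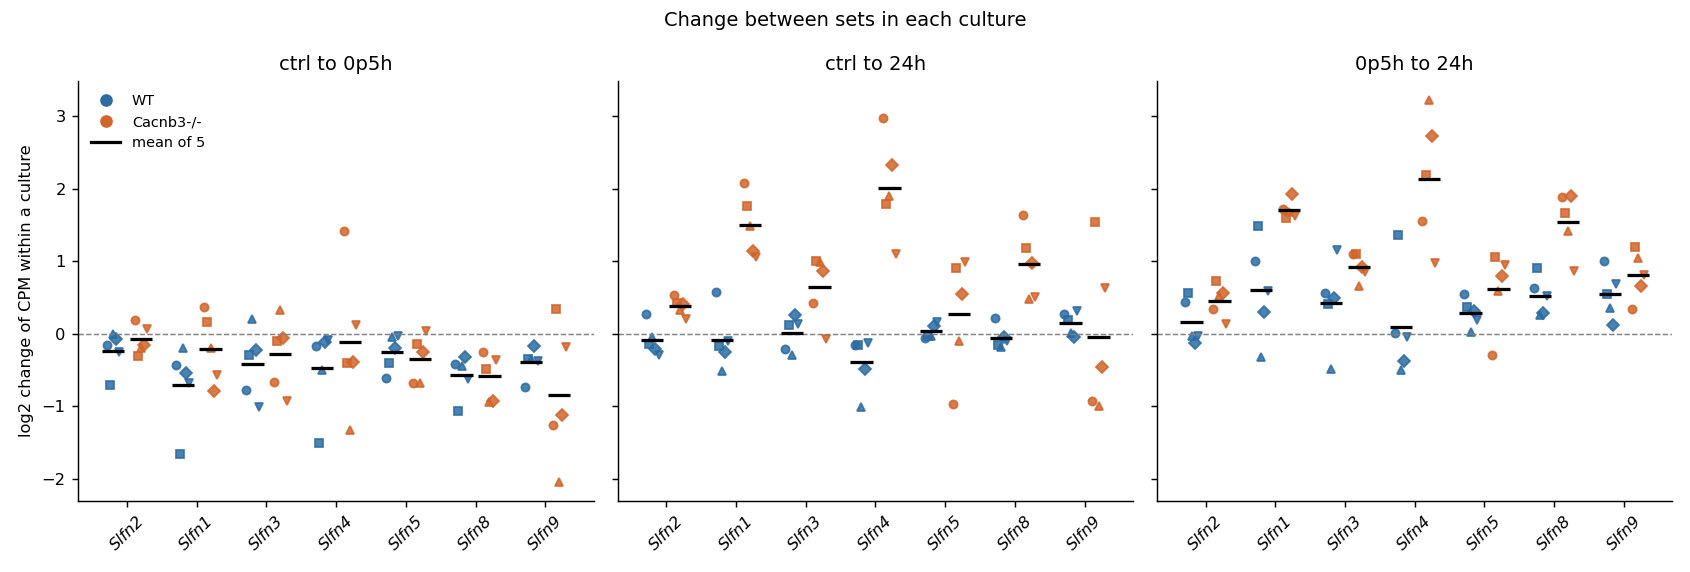
Each point is the log2 change of CPM of a Schlafen gene between 2 sets of 1 culture, with WT in blue, Cacnb3-/- in orange, marker shapes for cultures and bars at the mean of 5. Changes from ctrl to 0p5h lie mostly below 0 in both genotypes, and from ctrl to 24h all 5 Cacnb3-/- points of Slfn4 lie above 0 (mean 2.01) and all 5 WT points below it (mean -0.39).

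Whether the change between sets differed between genotypes was fitted as an interaction. From ctrl to 24h the estimates were higher in Cacnb3-/- for Slfn4 by 2.62 on the log2 scale (SE 0.83, adjusted p = 0.753), for Slfn1 by 1.66 (SE 0.85) and for Slfn8 by 1.07 (SE 0.46), and for the other 4 by 0.30 to 0.60. By edgeR 0 of 7 were called, with 0% of 13536 genes, and 2 (Slfn4 and Slfn8) had an unadjusted p under 0.05, as had 658 genes. With culture as a block 2 of 7 were called, where 0.118% of genes were, Slfn4 at 2.45 (SE 0.29, adjusted p = 0.00296) and Slfn1 at 1.63 (SE 0.25, adjusted p = 0.0148), and DESeq2 with the block called these and Slfn8, with 0.397% of genes. From 0p5h to 24h they were 2.11 for Slfn4 (SE 0.96, adjusted p = 0.680), 1.38 for Slfn1 (SE 0.96) and 1.12 for Slfn8 (SE 0.54), and again 0 of 7 were called, with 0% of 13424 genes and 1 member (Slfn4) and 789 genes at an unadjusted p under 0.05. Blocked by culture, edgeR called 0 members (0.00745% of genes) and DESeq2 3 (Slfn1, Slfn4 and Slfn8, with 0.423% of genes). From ctrl to 0p5h 0 of 7 were called, with 0% of 13465 genes, and 0 members and 30 genes had an unadjusted p under 0.05. Without the block DESeq2 called 0 members in each of the 3.

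The 7 members varied together over the 30 libraries. Pearson's r of log2 CPM over the 21 pairs of members ranged from 0.416 (Slfn4 with Slfn9) to 0.913 (Slfn5 with Slfn9), with a median of 0.825, and r was 0.911 between Slfn1 and Slfn8. The libraries share cultures and depth, so these values are descriptions. Among 11823 other genes, those most like Slfn1 were Xaf1 (r = 0.976), Oasl2 (0.973) and Ifi206 (0.967), and those most like Slfn2 were Zbp1 (0.918), Ifi211 (0.917) and Irf7 (0.911). Ifi204 led for both Slfn4 (0.942) and Slfn8 (0.943), followed by Ifi206 and Ifi213 for Slfn4 and by Oas2 and Irgm1 for Slfn8. Slfn3 was closest to Phf11d (0.908), Irf9 and Stat2, and Slfn5 to Lgals3bp (0.940), Rnf213 and Adar. Slfn9 was closest to Zfp526 (0.888), Batf2 and Trim14, at the lowest r of the members.

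A list of 24 interferon-stimulated genes was set beside the family. In ctrl 22 of the 24 had a lower estimate in Cacnb3-/-, with a median log2 fold change of -1.57, against -1.25 for the members and 0.03 for all genes tested. Mx1 and Bst2, antiviral genes and the most abundant of the list, were at 0.01 each, while Uba7, which activates Isg15, was at -0.67 and Trim30a at -1.01. The medians were -1.43 in 0p5h (23 of 24 lower) and -0.61 in 24h (19 of 24 lower). From 0p5h to 24h in Cacnb3-/- 24 of 24 had a higher estimate, with a median of 1.21 against 1.34 for the members tested and a median near 0 for all genes, and 2 were called, Ifit1 (2.81, adjusted p = 0.0469) and Trim30a (1.21, adjusted p = 0.0300). With culture as a block 15 of the 24 were called. Of all genes tested 0.660% were called without the block and 2.88% with it. In WT 24 of 24 were higher as well, with a median of 0.41, and 0 were called.

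Of 10 interferon signalling genes, 9 passed the filter and Ifnb1, which encodes interferon beta, held at most 11 reads in a library. All 9 had a lower estimate in Cacnb3-/- in ctrl, with a median of -0.43, and 0 were called. Irf7, the factor that amplifies interferon production, had the widest difference, at a mean of 127 CPM in WT and 8.86 in Cacnb3-/- in ctrl, and 32.6 in Cacnb3-/- in 24h. In 24h the log2 fold change of Irf7 was -1.97 (edgeR adjusted p = 0.0722). Stat2 (-1.25) and Irf9 (-0.76) had the next widest differences in ctrl on the log2 scale. Jak1 (-0.13), Ifnar2 (-0.18), Irf1 (-0.30), Ifnar1 (-0.31), Tyk2 (-0.43) and Irf8 (-0.60) differed less.

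**Figure D4:**
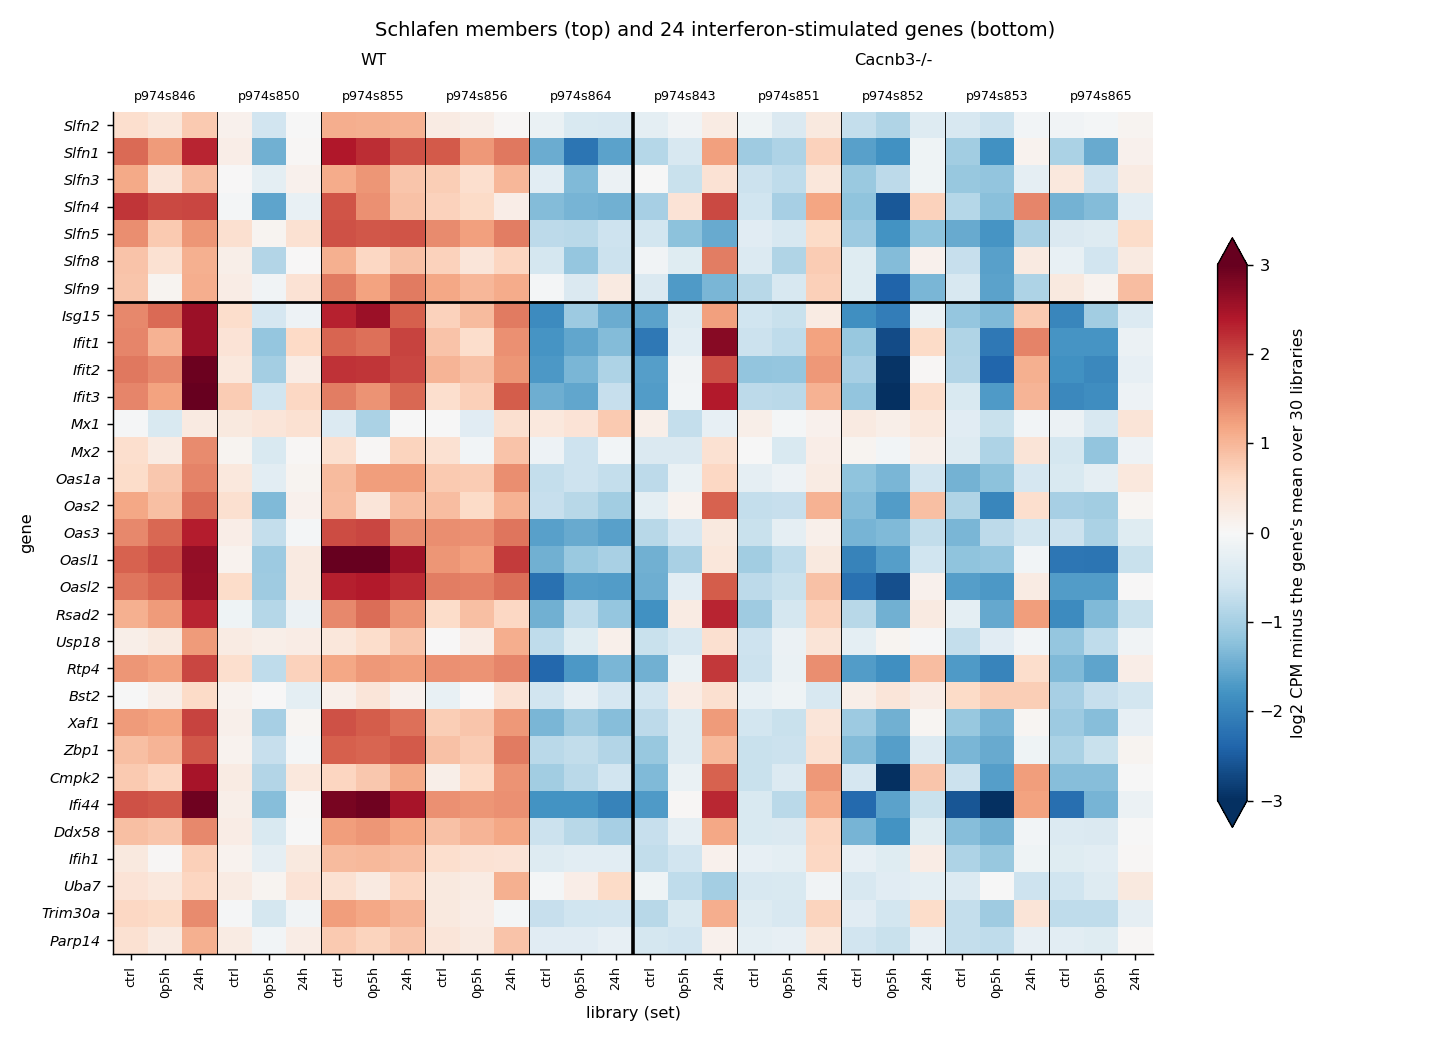
Colours give log2 CPM minus the gene's mean over the 30 libraries, for the 7 Schlafen genes (top) and the 24 interferon-stimulated genes (bottom), with libraries in columns by culture and set and the colour scale limited at 3 and -3. WT cultures p974s846, p974s855 and p974s856 are red and p974s864 blue in most rows of both blocks, as are the ctrl libraries of Cacnb3-/-, whose 24h libraries are paler or red.

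The mean deviation of the members and of these 24 genes lay side by side in the cultures, at 1.41 and 1.32 on the log2 scale in p974s855, 1.11 and 1.24 in p974s846, 0.86 and 0.84 in p974s856 and -0.82 and -0.91 in p974s864. The pair was -0.97 and -0.80 in p974s852 and -0.78 and -0.63 in p974s853. It parted most in Cacnb3-/- culture p974s865, with -0.24 for the members and -0.78 for the list.

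Of the other Schlafen-named genes, Slfn10-ps, which lies in the same cluster, was at 8.12 ± 6.20 CPM in WT and 2.68 ± 1.07 in Cacnb3-/- in ctrl, and Slfn14 and Slfnl1 held at most 9 and 3 reads in a library. Within 200 kb of the cluster 26 further genes were in the table, Slfn10-ps included, of which 13 were tested in ctrl between genotypes, with a median log2 fold change of -0.02 and 0 called. The long noncoding gene Slfnlnc had means of 54.9 CPM in WT and 70.6 in Cacnb3-/- in ctrl, and of 61.4 and 100.4 in 24h, the higher in Cacnb3-/-. The mature dendritic cell sums were lower in Cacnb3-/-, though not every gene of that list was. The macrophage or monocyte sum of p974s865 was the highest of Cacnb3-/- in each set. That of p974s864 was the highest of WT in ctrl and 0p5h but not in 24h. By culture means, p974s864 was the lowest of WT for 7 of 7 members, whereas p974s865 was the highest of Cacnb3-/- for 3 and the lowest for 1. The part of these sums in the levels of the Schlafen genes was not tested.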

How the data were processed

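Per the file header, the authors counted reads on exons by gene with featureCounts 1.5.1 and Ensembl 79 gene models (GRCm38), with no option for strand, multiply aligned reads, overlapping genes or read pairs, and deposited raw counts of 43629 genes in 30 libraries. Per the labels, STAR 2.4, mm10 and DESeq2 were used, while the study's methods name GRCm39, so the build of the alignment is uncertain. Symbols came from GENCODE M39 by identifier (38984, or 89.4%, matched).

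Libraries were grouped by genotype and by the ending of their titles. edgeR 4.0.16 in R 4.3.3 (TMM, filterByExpr defaults, quasi-likelihood F test) was fitted over all genes, with Benjamini-Hochberg adjustment over all genes tested. Genes were called at an adjusted p under 0.05 and at least 2-fold. CPM and RPKM were computed from the deposited counts, and log2 CPM for likeness used a prior count of 2. The members and all gene lists were chosen with earlier results of these data known, and 1 gene of the interferon signalling list is not reported here. All 7 members were named whatever their values, and, as genes most like a member, the 3 with the highest Pearson r.

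Libraries of the same culture number deviated together from their group means (r over 0.1 in 29 of 30 pairs, median 0.609, against -0.219 for other numbers, over 13755 genes). The exception was p974s843 of Cacnb3-/- between ctrl and 24h (0.0746), so by the limit used here the numbers paired the libraries in every comparison of sets but that one and its interaction, for which blocked values are given beside the unblocked ones. Alternatives were DESeq2 1.42.0, its size factors, an unfiltered table, adjusted p alone, 1 fit of all 30 libraries, removal of the GC trend, the block, and each culture left out. Lane as a covariate, and the block with each culture left out, were added after seeing the data. The fits were tested on simulated data, drawn with the same dispersion for all genes and no effect of culture. That test does not show how the fits behave at the spread between cultures seen here.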

Additional observations from a re-analysis of the deposited data

Results flagged for a closer look

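Slfn4 in the Cacnb3-/- 0p5h libraries had 1 library far from the others, p974s843 at 14.6 CPM, with the next at 5.39 and a gap that was 0.719 of the range (limit 0.71 for 5 samples). The gap was taken on CPM and not on the log2 scale. It was the only one over the limit among 42 groups of 5 values (7 members, 6 groups). Chance gives about 1 in 20 groups, so 1 among 42 is no more than chance gives. Slfn4 also moved in opposite ways from ctrl to 24h, lower in 5 of 5 WT cultures (mean log2 change -0.39) and higher in 5 of 5 Cacnb3-/- cultures (2.01). The interaction by edgeR was 2.62 on the log2 scale (SE 0.83, adjusted p = 0.753 over all genes), and 0.399 was the lowest adjusted p among the alternatives without a culture block. With the block it was 2.45 (SE 0.29, edgeR adjusted p = 0.00296).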

How the results depend on the processing

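Under all alternatives, 1620 of 1720 log2 fold changes of single members stayed on their side of the threshold, 89 passed it newly and 11 no longer did, and 0 of the called values reversed. Signs changed in 52 values over 14 pairs of member and comparison, none of them called. Counts of members called are given here without the share over all genes, which stands above for some of these fits. For genotype, 0 members were called by edgeR in each set and with libraries summed. DESeq2 called 3 in ctrl, 1 in 0p5h, 1 in 24h and 2 with libraries summed, and 1 fit of all 30 libraries called 1 in 24h (Slfn5). With 1 culture left out the count ranged from 0 to 4 in ctrl, 0 to 1 in 24h and 0 to 3 with libraries summed. No paired analysis was possible for genotype because the genotypes share no culture number.

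For Cacnb3-/- from 0p5h to 24h the count was 2, against 4 with the replicate block, 1 with all 30 libraries in 1 fit (Slfn8), 0 with the GC trend removed and 0 to 3 with 1 culture left out, or 3 to 5 when the block was kept. From ctrl to 24h it was 0, against 3 by DESeq2, 2 without a filter, 2 with the replicate block, 2 with the block in DESeq2, 2 with the block and the GC trend removed, and 0 to 1 with 1 culture left out (2 to 3 with the block). For the interaction from ctrl to 24h the count was 0, against 2 with the block (Slfn1, and Slfn4 at an adjusted p of 0.00296), 3 with the block in DESeq2, 2 with the block and the GC trend removed, and 1 to 3 with the block and 1 culture left out, being 1 without WT p974s855, WT p974s856, p974s851 or p974s852. For that from 0p5h to 24h it was 0, against 3 with the block in DESeq2, and with the block 1 without WT p974s850 and 3 without p974s865 (range 0 to 3). By the check used here, the Cacnb3-/- ctrl and 24h libraries of p974s843 shared only a number (r = 0.0746), whereas those of the other cultures deviated together (r = 0.428 to 0.703). The block changed no other count. No fold minimum, DESeq2 size factors and lane changed no count of members. The causes of these shifts were not tested, and a fit with a culture left out also has fewer samples.

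Depth limits Slfn9 and Slfn3 most, with as few as 1 and 5 reads in a library, and each was removed by the filter on low counts in some comparisons. Reads from stretches shared between members were assigned in a way not given in the sources used here. The genotype is confounded with substrain, and the ctrl and 0p5h sets carry conflicting labels. The members were chosen with earlier results known, so their values here are no independent support.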
